A study of Mus musculus with 24 samples.

Results

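Gata1, the master regulator of red cell formation, was followed together with 9 other erythroid regulators, namely Klf1, Tal1, Nfe2, Lmo2, Ldb1, Zfpm1, Bcl11a, Foxo3 and Trim10. The 10 genes were picked by name, and each was read from the annotated probe set with the highest mean log2 signal over 24 arrays. All 10 passed the filter on low signal, among 11046 genes that did so and 18192 genes with a probe set of their own. They have 19 probe sets in all, of which 18 passed the filter, and 7 of the 10 genes have only 1.

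GATA1 binds DNA in erythroid cells in a complex in which the bHLH factor TAL1 is tied by LMO2 to the adaptor LDB1, and LDB1 brings distant enhancers to their promoters. Zfpm1 encodes FOG1, the cofactor without which GATA1 cannot drive most erythroid genes, and Klf1 encodes an activator of globin and membrane genes that binds CACCC boxes. Loss of full-length GATA1 and loss of single ribosomal proteins are both known causes of Diamond-Blackfan anaemia, in which erythroid precursors fail. The question here was how far the mRNAs of these regulators sat on polysomes, and how much of them the cells held, when 1 of 2 ribosomal proteins ran short.

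The cells were immortalized mouse erythroblasts grown without serum in the presence of erythropoietin, stem cell factor and dexamethasone. They received an shRNA against Rps19, an shRNA against Rpl11, or a control construct (its labels read ev and sc) by lentivirus 3 days before harvest in cycloheximide, or they stayed untransduced. Each of these 4 groups has 3 sucrose gradients, called biological replicates in the labels, and from each gradient the polysomes as far as the 80S peak were pooled as polysomal RNA and the rest as subpolysomal RNA. Each pool was read on its own Affymetrix array. The labels give no passage, clone or construct sequence, and the description of the 3rd Rps19 gradient alone carries the word puro without saying what it means. The descriptions of the Rpl11 shRNA count its pools together from 1 to 6, and the replicate numbers used here are those of the titles.

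Throughout, signal is the deposited MAS5 intensity, and recruitment is the log2 signal of a gradient's polysomal pool minus that of its subpolysomal pool. Level is the mean of these 2 log2 values, since no unfractionated RNA was measured. A difference between groups is given on the log2 scale with its standard error (SE), and it counts as a change only where limma's p, adjusted over all 11046 genes, lies under 0.05. Because scaling brought the arrays to nearly 1 trimmed mean, a joint shift of all mRNA leaves no trace. In such bulk pools, fewer cells of a kind and less RNA per cell cannot be told apart, and signals of different probe sets say nothing about which gene is more abundant.

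Both targets fell with their shRNA. Rps19 had a level of 13.84 ± 0.22 (SD, n = 3 gradients) with its shRNA and 15.37 ± 0.05 with the control construct (2.88-fold lower, adjusted p = 0.00372). Rpl11 had 12.57 ± 0.53 with its own shRNA and 15.23 ± 0.13 with the control construct (6.32-fold lower, adjusted p = 0.00111). Rps19 was lower with the Rpl11 shRNA as well, at 14.8 ± 0.15 (difference −0.57, SE 0.16, adjusted p = 0.0273), and passed in 5 of 16 alternatives. Rpl11 with the Rps19 shRNA did not pass (−0.33, SE 0.25, adjusted p = 0.587). The arrays of the Rpl11 shRNA stood apart in a control ratio that grows when RNA or labelled copies are short. For Gapdh, the control probe set at the 3' end over that at the 5' end gave a log2 ratio of 0.99, 1.23 and 3.31 in the polysomal pools and −0.46, 2.1 and 3.9 in the subpolysomal pools, whereas the other 18 arrays lay between −0.42 and 0.42. Their median signals were also lower, at 46.8 to 49 in the polysomal pools (58.9 to 68.9 elsewhere) and 65.7 to 86.7 in the subpolysomal pools (97.2 to 125 elsewhere). Of the erythroblast markers, Alas2, Tfrc, Slc4a1, Epor and Kit passed the filter in these cells. Hba-a1 did not, and probe sets shared by several globin genes were not used. Of the markers of other blood cells, 5 of 7 megakaryocyte, 2 of 5 mast cell, 3 of 7 myeloid and 0 of 4 lymphoid genes with a probe set passed, led by Pf4 with a mean signal of 3120. The summed signal of the megakaryocyte markers lay at 2790 to 5810 with the Rps19 shRNA, 4440 to 6350 with the Rpl11 shRNA, 2940 to 7620 with the control construct and 3330 to 7100 without a construct, so the groups overlapped for this list. The mast cell, myeloid and lymphoid lists were lower with the Rpl11 shRNA than with the control construct in every gradient. Their summed signals were 233 to 265 against 319 to 526 for mast cells, 472 to 668 against 705 to 777 for myeloid cells and 96.6 to 116 against 163 to 253 for lymphoid cells. Without a construct they were 219 to 668, 700 to 804 and 164 to 358, so the mast cell sums overlapped there. Most genes of these lists lay below the filter, and the Rpl11 arrays had lower median signals, as given above. The part of these lists in the results with this shRNA was not tested. Of the tested markers of other blood cells, only Gp9 of platelets changed in level with an shRNA (−1.37 with the Rpl11 shRNA, SE 0.28, adjusted p = 0.00859). Its levels of 5.43 ± 0.55 with that shRNA and 6.8 ± 0.36 with the control construct lay near the filter on low signal (6.17).

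The promoters below are shown because Gata1 was the member whose recruitment passed the test under an shRNA, Trim10 had the lowest level difference of the 10 with the Rps19 shRNA, and Klf1 had the recruitment difference nearest 0 with each shRNA. Each is the 250 bases before the annotated start in RefSeq (build GRCm38.p6), written 5′ to 3′ on the strand of the gene. The capitals mark the letters GATAA or GATAG, or their reverse complements TTATC and CTATC. These hold the GATA core that GATA factors recognise, and the bases beside them were not considered. The Gata1 window is chrX:7967911-7968160 on the minus strand, the Klf1 window chr8:84901732-84901981 and the Trim10 window chr17:36869324-36869573, both on the plus strand.
Gata1: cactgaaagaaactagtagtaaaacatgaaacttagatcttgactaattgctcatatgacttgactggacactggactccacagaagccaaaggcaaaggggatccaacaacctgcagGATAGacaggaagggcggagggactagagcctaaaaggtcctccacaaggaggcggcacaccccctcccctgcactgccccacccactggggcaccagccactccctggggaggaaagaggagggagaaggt
Klf1: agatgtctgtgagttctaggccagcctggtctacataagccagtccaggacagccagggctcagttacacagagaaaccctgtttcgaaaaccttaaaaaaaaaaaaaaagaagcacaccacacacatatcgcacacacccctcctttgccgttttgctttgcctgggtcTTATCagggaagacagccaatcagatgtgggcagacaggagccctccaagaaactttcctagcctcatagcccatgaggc
Trim10: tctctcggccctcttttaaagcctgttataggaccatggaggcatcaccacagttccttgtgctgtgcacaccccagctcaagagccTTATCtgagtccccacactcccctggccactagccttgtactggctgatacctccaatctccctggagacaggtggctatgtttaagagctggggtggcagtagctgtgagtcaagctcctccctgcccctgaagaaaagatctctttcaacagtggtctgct
The match lies 132 to 128 bases before the start in Gata1, 80 to 76 in Klf1 and 163 to 159 in Trim10. Windows were at hand for 8 of the 10 genes. GATAA or GATAG on either strand stood in those of 5 of the 8, counting every annotated start. By window this was 5 of 11, beside 37.4% of all 32851 windows of this length. CACCC, the core of the box that KLF1 binds, stood in those of 7 of the 8, or 9 of 11 windows, beside 52.0% of all windows. CANNTG, the E-box that TAL1 binds with its partner, stood in those of 5 of the 8, or 5 of 11 windows, beside 66.2% of all windows. Both were again read on either strand. These matches describe the letters and not bound sites.

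In untransduced cells the 10 mRNAs were spread around an even division between the pools. Tal1 leaned to polysomes with 59.6%, 64.8% and 59.9% of its summed signal in the polysomal pool of the 3 gradients, while Gata1 leaned the other way with 43.9%, 43.7% and 39.5%. All 3 Tal1 gradients lay above an even split and all 3 Gata1 gradients below it. In log2 terms Tal1 was higher in the polysomal than in the subpolysomal pool by 0.67 (SE 0.15, 1.59-fold, adjusted p = 0.00491), and Gata1 was lower by 0.45 (SE 0.11, 1.36-fold, adjusted p = 0.00872). These were the 2 of 10 members past the threshold, beside 40.9% of all genes (19.4% higher, 21.4% lower). On the probe sets used, the 3 gradients lay on 1 side of an even split for 9 of the 10 members and for 66.7% of all genes. They lay above it for 5 members (30.1%) and below it for 4 (36.6%).

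Among the other members, Klf1 stood at −0.28 (SE 0.11, adjusted p = 0.0614), Ldb1 at −0.37 (SE 0.35, adjusted p = 0.409) and Zfpm1 at −0.27 (SE 0.20, adjusted p = 0.313), each with 3 of 3 gradients below 0. Nfe2, the haematopoietic subunit of the factor NF-E2 that acts on globin enhancers, stood at −0.20 (SE 0.12) with gradients on both sides of 0. Lmo2 (0.15, SE 0.10), Bcl11a (0.05, SE 0.09), Foxo3 (0.30, SE 0.22) and Trim10 (0.26, SE 0.12) had 3 of 3 gradients above 0 without passing the test, with adjusted p from 0.111 to 0.68. Averaged over its probe sets, Bcl11a read −0.47 by the same test (adjusted p = 0.0086), so no direction can be given for that gene. The median of the 10 members was −0.08 and that of all genes −0.0898. These ratios compare polysomal with subpolysomal arrays that were scaled separately. With each array centred on its own median, the median of all genes reads 0.72, Gata1 0.37 (adjusted p = 0.0561) and Tal1 1.48. Relative to the median of all genes Gata1 is at −0.36 and Tal1 at 0.76 in both scalings. Without the 3rd untransduced gradient Gata1 gives −0.36 with an adjusted p of 0.0582, in a range of 0.00247 to 0.085 over 12 alternatives.

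The Rps19 shRNA moved none of the 10 recruitment values past the threshold. Gata1 had 43.1%, 46.4% and 44.3% of its signal in the polysomal pool with the Rps19 shRNA, against 39.1%, 42.6% and 43.7% with the control construct. The groups overlap, and the middle of the shRNA group is slightly the higher. The difference in Gata1 recruitment was 0.17 (SE 0.16, adjusted p = 0.675). Recruitment of Klf1 averaged −0.37 in both groups (SD 0.09 with the Rps19 shRNA and 0.14 with the control construct), a difference of 0.00 (SE 0.15).

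Within the GATA1 complex, Tal1 differed by −0.22 (SE 0.21), Lmo2 by −0.21 (SE 0.14), Ldb1 by −0.27 (SE 0.49) and the cofactor gene Zfpm1 by −0.34 (SE 0.29), with adjusted p from 0.522 to 0.856. Lmo2 gave recruitment of 0.04, −0.05 and −0.01 with the Rps19 shRNA and 0.21, 0.08 and 0.33 with the control construct, so its 3 values per group did not overlap. Trim10, which encodes the RING finger protein HERF1 of maturing red cells and is not itself a DNA-binding factor, was the other member apart, with 0.02, 0.14 and 0.44 against 0.47, 0.65 and 0.45. Its difference of −0.32 (SE 0.17, adjusted p = 0.423) had the lowest adjusted p of the 10. Nfe2 (−0.13, SE 0.17), Bcl11a (−0.02, SE 0.12) and Foxo3 (0.45, SE 0.31) overlapped between the groups. The other probe sets of Foxo3 read 0.52 and −0.59. Those of Bcl11a past the filter read 0.25, 0.5, −0.32, −0.28 and −0.34, so no direction can be given for either gene. The dimmer probe set of Zfpm1 read −1.17. BCL11A is known for silencing embryonic and fetal globin genes, and FOXO3 for driving antioxidant and late maturation genes of erythroblasts. The count of 0 in 10 stands beside 0.869% of all genes (0.290% higher, 0.579% lower), at an unadjusted p under 0.05 it was also 0 of 10, and the 2 members apart, both lower, stand beside 24.9% of all genes (12.7% higher, 12.2% lower). Of the 10 differences 8 were below 0, with a median of −0.17 where all genes had 0.0094.

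The Rpl11 shRNA went with a higher recruitment of Gata1. Its polysomal signal was 7036, 5577 and 4844 with the Rpl11 shRNA, against 3477, 4836 and 4753 with the control construct. In the subpolysomal pool it was 5467, 5056 and 5098 with the Rpl11 shRNA, against 5422, 6528 and 6129.5 with the control construct. Every Rpl11 gradient thus lies above every control gradient in the polysomal pool, and 1 of the 3 subpolysomal values falls among those of the control group. Of the summed Gata1 signal, 52.5% ± 3.8 (SD, n = 3) was polysomal with the Rpl11 shRNA and 41.8% ± 2.4 with the control construct.

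The plot of both pools shows this exchange for Gata1 and the opposite one for the brightest Bcl11a probe set.

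**Figure D1:**
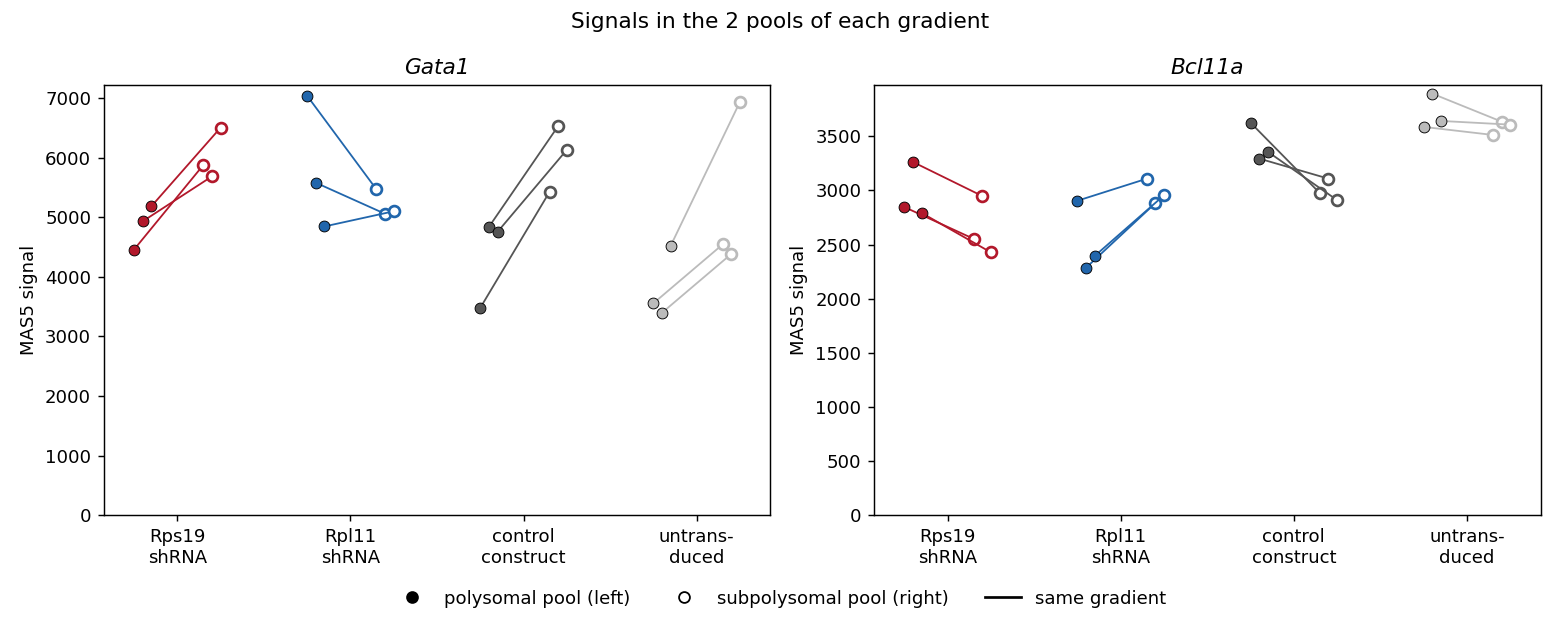
MAS5 signal (linear axis from 0) of Gata1 and of the brightest Bcl11a probe set in the polysomal (filled, left) and subpolysomal (open, right) pool of each gradient, by group, with a line joining the pools of a gradient. Lines of the Rpl11 shRNA run down or nearly level for Gata1, where those of the control construct run up, and for that Bcl11a probe set they run up where those of the control construct run down.

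In recruitment Gata1 read 0.36, 0.14 and −0.07 with the Rpl11 shRNA and −0.64, −0.43 and −0.37 with the control construct. The 3 values with the shRNA lie above all 3 of the control group. The difference was 0.62 (SE 0.16, 1.54-fold, adjusted p = 0.0445), at percentile 90.5 of the differences of all genes. Gata1 was the 1 member of 10 past the threshold, where 5.63% of all genes passed (2.11% higher, 3.52% lower). Leaving out any 1 of the 6 gradients gave differences of 0.51 to 0.73 with adjusted p from 0.0625 to 0.157. Over all 17 alternatives the difference ranged from 0.51 to 0.84 and the adjusted p from 0.0281 to 0.205. The Gapdh ratios of the Rpl11 gradients, averaged over both pools, were 0.27, 1.67 and 3.6, and recruitment of Gata1 was highest in the 1st gradient. The pools of that gradient differed in this ratio, at 0.99 in the polysomal and −0.46 in the subpolysomal pool. In the 2nd gradient they had 1.23 and 2.1, and in the 3rd 3.31 and 3.9. The part of these ratios in the recruitment of Gata1 was not tested. With the 1st gradient as the only one of the Rpl11 group, a choice made after seeing the data, the difference was 0.84. A lone gradient has no spread of its own, so here and wherever the 2nd and 3rd Rpl11 gradients are left out it is assumed to vary like the other groups.

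Bcl11a lay on the other side on its brightest probe set. Recruitment there was −0.10, −0.33 and −0.30 with the Rpl11 shRNA and 0.28, 0.08 and 0.21 with the control construct, with no overlap. The difference of −0.44 (SE 0.12, 1.35-fold) had an adjusted p of 0.0653. Its 2nd and 3rd brightest probe sets read 0.42 and 0.31 and the 3 below them that passed the filter −0.47, −0.65 and −1.54, so no direction can be given for the gene. Trim10 was apart as well, with −0.19, 0.32 and 0.22 against 0.47, 0.65 and 0.45 and a difference of −0.41 (SE 0.17, adjusted p = 0.204). These 3 of 10 members, Gata1 included, had groups that did not overlap, beside 26.5% of all genes (12.9% higher, 13.6% lower).

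The partners of GATA1 did not follow it past the threshold. Tal1 differed by −0.21 (SE 0.21), Lmo2 by −0.10 (SE 0.14), Ldb1 by 0.48 (SE 0.49) and Zfpm1 by −0.29 (SE 0.29), all with adjusted p of 0.615 or more. Ldb1 recruitment was far more scattered with the Rpl11 shRNA (SD 1.22) than with the control construct (SD 0.30). Its polysomal and subpolysomal signals in the 3rd Rpl11 gradient were 98.5 and 91, against 2233 and 2568 in the 3rd gradient of the control construct. Klf1 differed by 0.04 (SE 0.15), Nfe2 by 0.19 (SE 0.17) and Foxo3 by 0.12 (SE 0.31). The median difference of the 10 was −0.03 and that of all genes 0.0226.

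**Figure D2:**
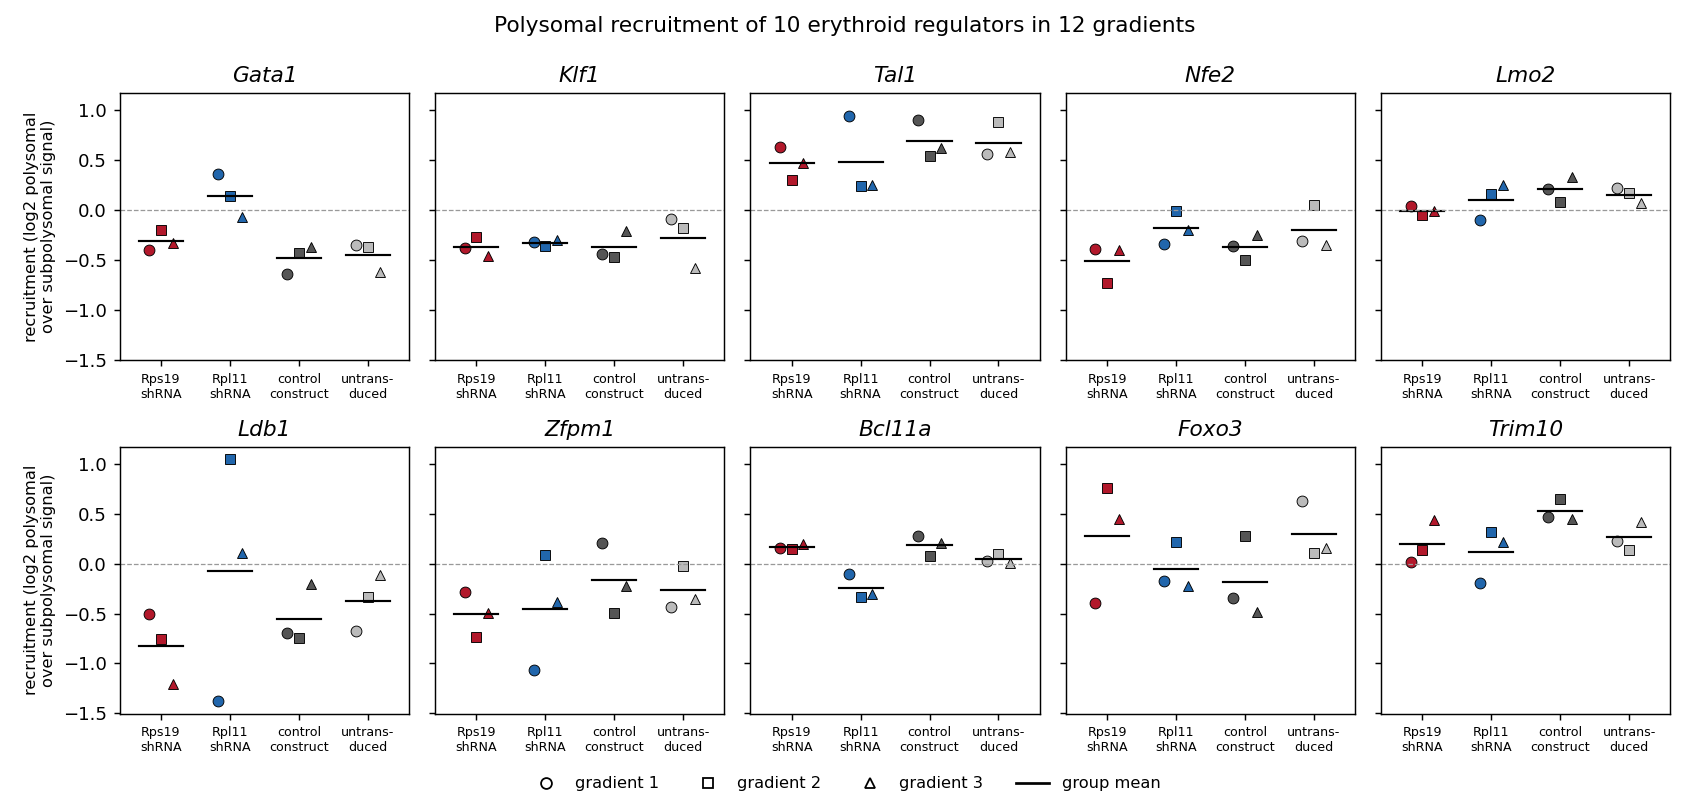
Recruitment (log2 polysomal over subpolysomal signal) of the 10 genes in 12 gradients, by group, with symbols for the gradient number and bars for group means, all panels on 1 scale. Gata1 lies higher with the Rpl11 shRNA (0.36, 0.14 and −0.07) than in the other groups, Bcl11a lies lower on its brightest probe set, and Klf1 has group means from −0.37 to −0.28.

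Set against each other, the shRNAs gave Gata1 recruitment of −0.40, −0.20 and −0.33 (Rps19) and 0.36, 0.14 and −0.07 (Rpl11). No value of the Rps19 group reaches those of the Rpl11 group. The difference, −0.45 (SE 0.16, adjusted p = 0.195), did not pass, so the Gata1 effects of the shRNAs are not shown to differ. Bcl11a on its brightest probe set (0.41, SE 0.12, adjusted p = 0.147) and Nfe2 (−0.32, SE 0.17, adjusted p = 0.378) were also apart without passing. In all, 0 of 10 members passed where 0.552% of all genes did (0.435% higher, 0.118% lower). Of the members 3 of 10 were apart where 21.1% of all genes were (11.0% higher, 10.1% lower). At an unadjusted p under 0.05 it was 2 of the 10 and 1729 of all genes.

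Between the control construct and untransduced cells no member passed in recruitment. Gata1 recruitment averaged −0.48 ± 0.14 with the construct and −0.45 ± 0.15 without it (difference −0.03, SE 0.16). The widest differences were those of Foxo3 (−0.48, SE 0.31) and Trim10 (0.26, SE 0.17). Trim10 alone had groups that did not overlap, where 9.89% of all genes had (4.97% higher, 4.92% lower). By limma 0 of 10 members and 0 of all genes (0%) passed, and at an unadjusted p under 0.05 it was 0 members and 497 genes.

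In level, Gata1 was nearly the same in every group. It averaged 12.40 ± 0.09 with the Rps19 shRNA, 12.42 ± 0.16 with the Rpl11 shRNA, 12.32 ± 0.20 with the control construct and 12.11 ± 0.29 in untransduced cells (SD, n = 3 each). From the highest, the order is Rpl11 shRNA, Rps19 shRNA, control construct and untransduced, and no neighbours in it differ beyond their spread. The differences from the control construct were 0.08 (SE 0.17, adjusted p = 0.865) with the Rps19 shRNA and 0.10 (SE 0.17, adjusted p = 0.696) with the Rpl11 shRNA. With each array centred on its median the Rpl11 value becomes 0.50 (adjusted p = 0.0409), where the median of all genes is 0.32 in place of −0.0795. Relative to that median, Gata1 is at 0.18 in both scalings. Over 16 alternatives the adjusted p of this difference lay between 0.0409 and 0.994.

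With the Rps19 shRNA no member changed in level past the threshold (0 of 10, beside 0.806% of all genes, 0.335% higher and 0.471% lower), yet 6 of the 10 had groups that did not overlap, beside 26.4% of all genes. Of these, Trim10, Foxo3, Nfe2, Klf1 and Bcl11a were lower with the shRNA (12.1% of all genes) and Ldb1 was higher (14.3%). At an unadjusted p under 0.05 it was 3 of 10 members, namely Trim10, Foxo3 and Nfe2. Same-numbered gradients of these 2 groups deviated together in level, and with the number as a block 17 genes passed in place of 89, and again 0 of 10 members (Foxo3 adjusted p = 0.0723, Trim10 0.0852). The shared control construct stands behind these values and those of the Rpl11 shRNA alike.

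Trim10 had the lowest difference of the 10. Its level was 8.85, 9.24 and 8.87 with the Rps19 shRNA and 9.71, 11.34 and 11.23 with the control construct. The highest gradient of the shRNA group lies below the lowest of the control group, whose own 3 gradients are far apart. In the polysomal pool this corresponds to signals of 455, 625 and 538 against 976, 3237 and 2792. The difference of −1.77 (SE 0.50, 3.42-fold lower) sits at percentile 0.1 of all genes but has an adjusted p of 0.137, from 0.0685 to 0.404 over 15 alternatives. Untransduced cells show the same wide scatter, at 9.65, 9.71 and 11.35.

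The low gradients of Trim10, the 1st of the control construct and the 1st and 2nd of untransduced cells, were also the lowest of their groups for Gata1 and Lmo2. Gata1 levels there were 12.09, 11.98 and 11.92, where the other 3 gradients of these 2 groups had 12.46, 12.4 and 12.45. Lmo2 levels were 12.34, 12.32 and 12.24 in the first 3 and 12.8, 12.81 and 12.86 in the other 3. No label names a batch that would set these gradients apart. Between the control construct and untransduced cells 0 of 10 members and 0 of all genes (0%) changed in level, with 0 members and 260 genes at an unadjusted p under 0.05. Only Bcl11a was apart, with 11.69, 11.65 and 11.61 with the construct and 11.8, 11.88 and 11.83 without it (7.47% of all genes, 3.30% higher and 4.17% lower), a difference of −0.19 (SE 0.12).

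Foxo3 had levels of 8.83, 9.32 and 9.12 with the Rps19 shRNA and 9.44, 9.8 and 9.75 with the control construct, a difference of −0.57 (SE 0.18, 1.49-fold lower, adjusted p = 0.158). Its other 2 probe sets, both dimmer, read −0.25 and −0.74 and so leaned the same way. Nfe2 had 13.08, 13.11 and 13.04 against 13.37, 13.55 and 13.52, with a difference of −0.40 (SE 0.14, 1.32-fold lower, adjusted p = 0.209). Klf1 (−0.18, SE 0.13) and Bcl11a (−0.20, SE 0.12) were lower by less, though each time all 3 gradients lay below those of the control construct. The next brightest Bcl11a probe set read 0.33, with all 3 gradients above the control construct, and the 3rd 0.10, so no direction can be given for that gene. Tal1 differed by −0.22 (SE 0.21), Lmo2 by 0.15 (SE 0.20), Ldb1 by 0.41 (SE 0.71) and Zfpm1 by 0.16 (SE 0.24), with adjusted p of 0.668 or more.

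**Figure D3:**
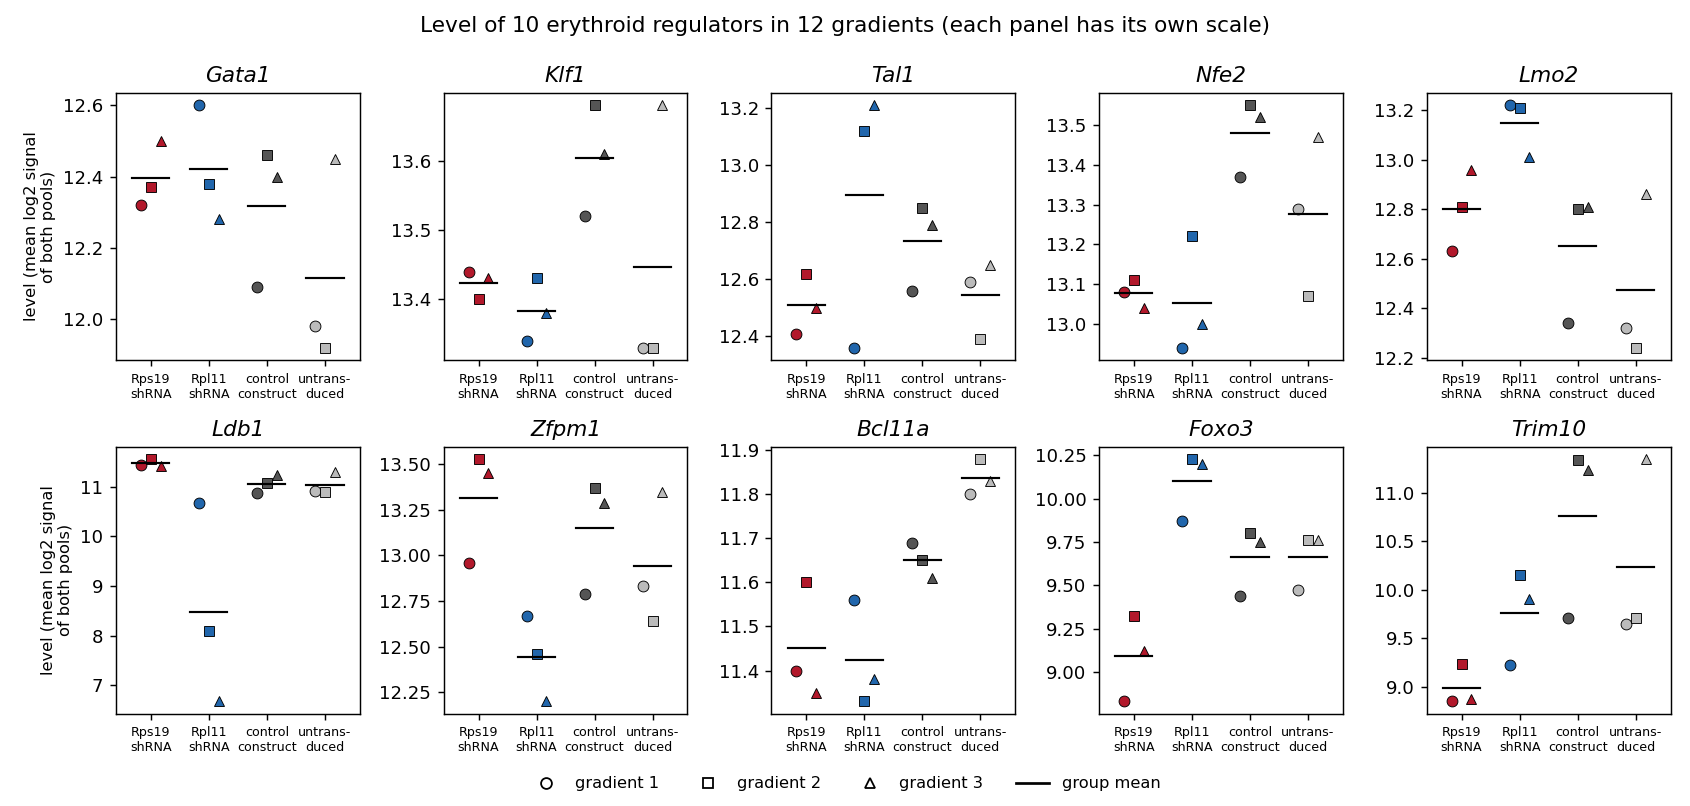
Level (mean log2 signal of both pools) of the 10 genes in 12 gradients, by group, with symbols for the gradient number and bars for group means, each panel on its own scale. Trim10, Foxo3 and Nfe2 lie lower with the Rps19 shRNA than with the control construct, and Ldb1 drops to 8.09 and 6.68 in the 2nd and 3rd Rpl11 gradients.

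With the Rpl11 shRNA, Ldb1 fell. Its level was 10.67, 8.09 and 6.68 with the Rpl11 shRNA and 10.87, 11.08 and 11.23 with the control construct. Every gradient of the shRNA group is lower, the 1st by little and the 3rd by most. The difference was −2.58 (SE 0.71, 5.98-fold lower, adjusted p = 0.0271), and it was the 1 of 10 members past the threshold, beside 20.1% of all genes (8.70% higher, 11.4% lower). The 3' to 5' Gapdh ratio of the same gradients was 0.27, 1.67 and 3.6, so the level of Ldb1 ran down as that ratio ran up, and its part in the result was not tested. Without the 2nd and 3rd Rpl11 gradients, a choice made after seeing the data that leaves 1 gradient with no spread of its own, the difference was −0.39 (adjusted p = 0.292). Leaving out 1 gradient at a time, the adjusted p was 0.000239 without the 1st Rpl11 gradient and from 0.0538 to 0.0874 without any other, and over all 16 alternatives it lay between 0.000239 and 0.292.

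Zfpm1, which has a brighter and a dimmer probe set, was lower on both with the Rpl11 shRNA, without passing the test on the brighter one. The brighter one had levels of 12.67, 12.46 and 12.2 with the Rpl11 shRNA and 12.79, 13.37 and 13.29 with the control construct, a difference of −0.71 (SE 0.24, adjusted p = 0.0559). The dimmer one had 9.22, 7.41 and 6.35 against 10.27, 10.83 and 10.96, a difference of −3.03. Both are lower in all 3 gradients, but the sizes disagree. Only the dimmer one descends steeply as the Gapdh ratio rises, though less so than Ldb1. Gata1, with 12.6, 12.38 and 12.28 in the same gradients, overlaps the other groups.

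**Figure D4:**
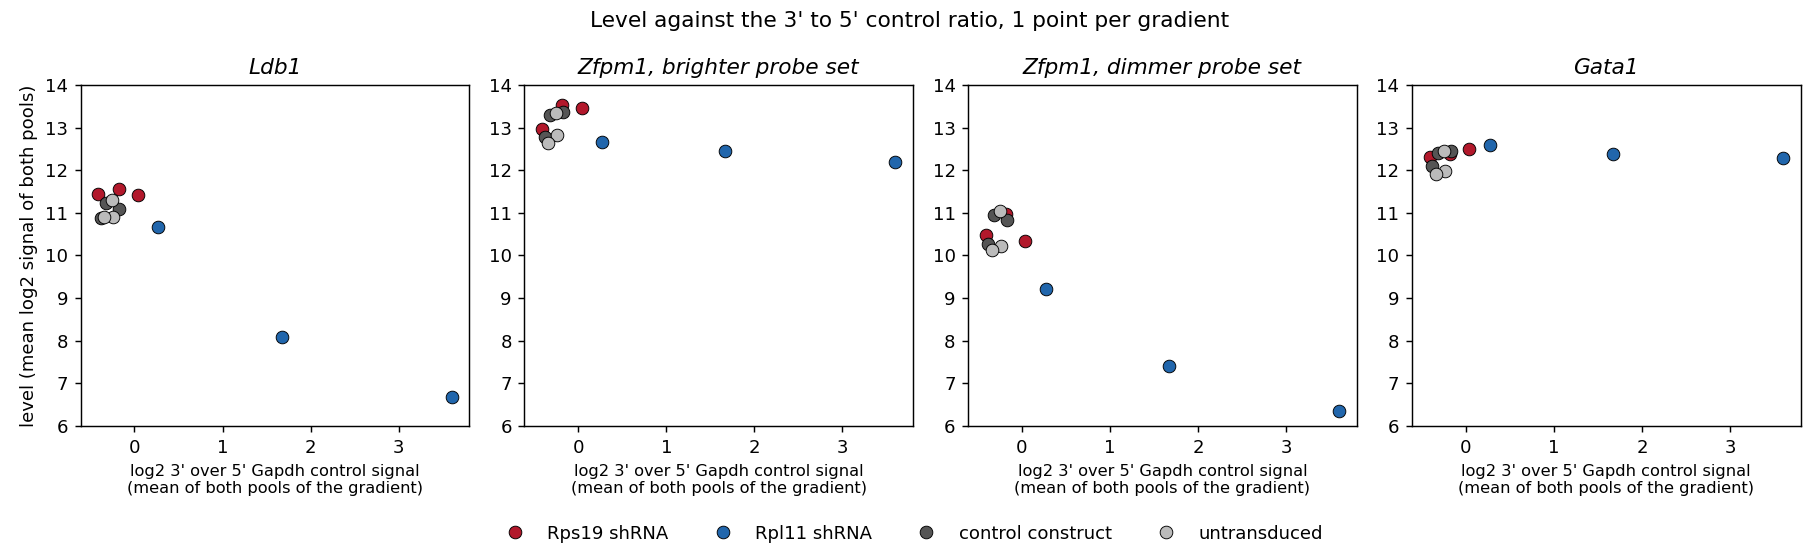
Level (mean log2 signal of both pools) of Ldb1, of each Zfpm1 probe set and of Gata1 against the log2 Gapdh ratio (3' over 5' control probe set), 1 point per gradient, coloured by group. The Rpl11 gradients, at ratios of 0.27, 1.67 and 3.6, descend steeply for Ldb1 and the dimmer Zfpm1 probe set, and little for the brighter Zfpm1 probe set and Gata1.

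The other members moved less with the Rpl11 shRNA, and none of them passed. Nfe2 had levels of 12.94, 13.22 and 13 with the Rpl11 shRNA, below the 13.37, 13.55 and 13.52 of the control construct, with a difference of −0.43 (SE 0.14, adjusted p = 0.0542). Lmo2 had 13.22, 13.21 and 13.01, above the 12.34, 12.8 and 12.81 of the control construct, with a difference of 0.49 (SE 0.20, adjusted p = 0.0937). Foxo3 (0.44, SE 0.18, adjusted p = 0.096) was also higher in every gradient on its brightest probe set, but its other probe sets read −0.28 and −0.86, so no direction can be given for the gene. Klf1 (−0.22, SE 0.13) and Bcl11a (−0.23, SE 0.12) were lower in every gradient on the probe sets used. From the brightest to the dimmest, the 7 probe sets of Bcl11a read −0.23, −0.08, 0.06, −0.86, −1.6, −1.65 and −0.53, the last of them below the filter. Trim10 (−1, SE 0.50, adjusted p = 0.172) and Tal1 (0.17, SE 0.21) overlapped with the control group. In all, 7 of 10 members had groups that did not overlap, beside 36.3% of all genes (15.9% higher, 20.5% lower).

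**Figure D5:**
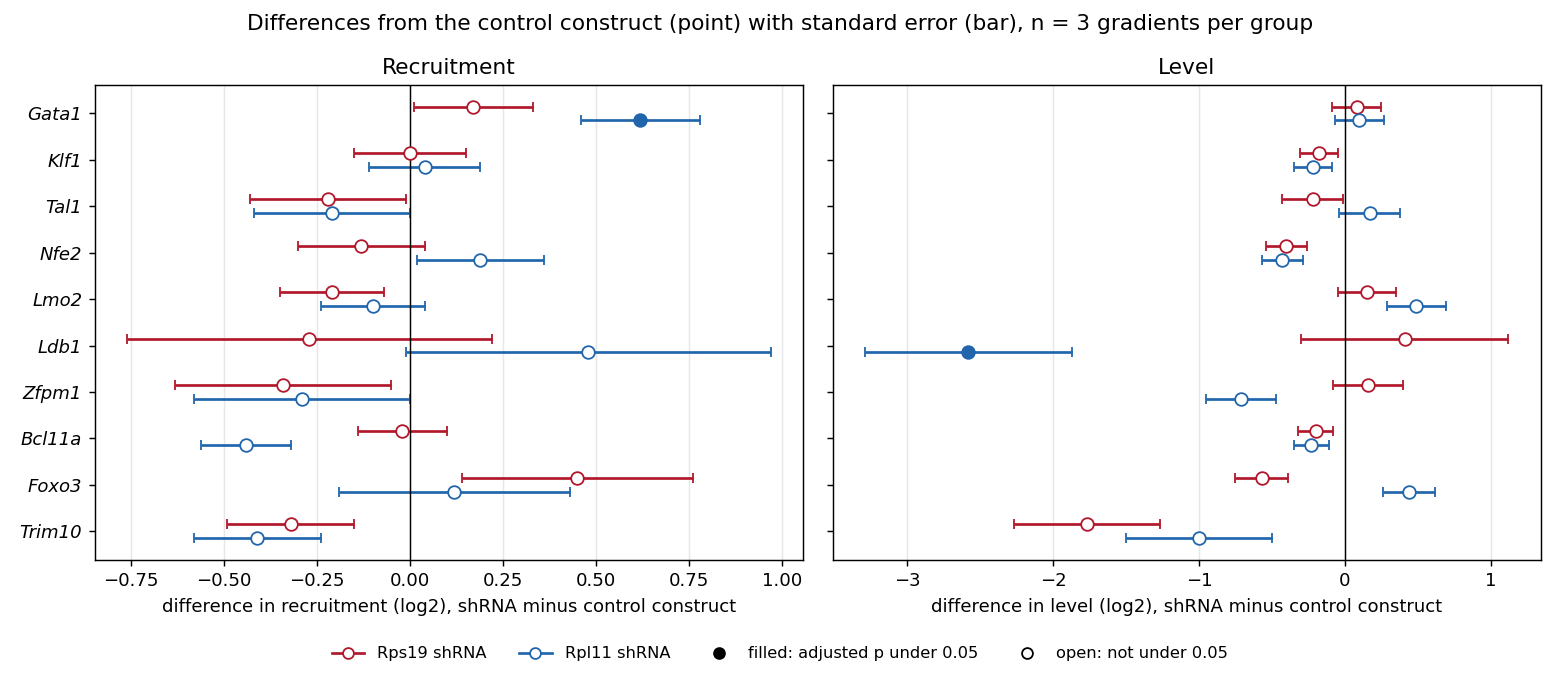
Differences in recruitment (left) and level (right), each shRNA minus the control construct on the log2 scale, with standard errors as bars (n = 3 gradients per group) and filled points where the adjusted p is under 0.05. Only Gata1 recruitment (0.62) and Ldb1 level (−2.58), both with the Rpl11 shRNA, are filled.

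Between the shRNAs, 3 of 10 members differed in level, beside 20.4% of all genes (11.8% higher, 8.57% lower with the Rps19 than with the Rpl11 shRNA). Ldb1 was higher with the Rps19 than with the Rpl11 shRNA by 2.99 (SE 0.71, 7.92-fold, adjusted p = 0.0152), at 11.44, 11.56 and 11.41 against 10.67, 8.09 and 6.68. Zfpm1 was higher by 0.87 (SE 0.24, 1.83-fold, adjusted p = 0.0259), at 12.96, 13.53 and 13.45 against 12.67, 12.46 and 12.2. Foxo3 on its brightest probe set was lower by 1.01 (SE 0.18, 2.02-fold, adjusted p = 0.00384), at 8.83, 9.32 and 9.12 against 9.87, 10.23 and 10.2. On the probe sets used, the groups of these 3 genes do not overlap. Lmo2 (−0.34, SE 0.20, adjusted p = 0.229) brought the total to 4 of 10, beside 37.4% of all genes (21.7% higher, 15.7% lower). Without the 2nd and 3rd Rpl11 gradients, where the lone one is assumed to vary like the other groups, 0 of 10 passed, with Ldb1 at 0.80 (adjusted p = 0.0507), Zfpm1 at 0.64 (0.283) and Foxo3 at −0.78 (0.0728). On the 2nd brightest Foxo3 probe set the Rps19 and Rpl11 groups overlapped, at 9.14, 9.29 and 9.18 against 9.05, 9.17 and 9.31. The dimmest overlapped too, at 7.11, 6.99 and 6.93 against 7.23, 6.83 and 6.62. Averaged over its probe sets, Foxo3 differed by −0.29 (adjusted p = 0.282), so no direction can be given for the gene. The remaining 6 members had differences from −0.78 (Trim10, SE 0.50) to 0.04 (Klf1, SE 0.13), all with adjusted p of 0.199 or more.

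Partners of GATA1 and other erythroid regulators outside the 10 were read from a list of 31 genes, all of them tested. With the Rps19 shRNA 2 of the 31 rose in level and 0 fell, where 0.335% and 0.471% of all genes did. Kdm1a, the histone demethylase LSD1 that works with GFI1B, averaged 10.49 ± 0.12 against 9.80 ± 0.15 with the control construct (difference 0.69, SE 0.14, adjusted p = 0.0479). Hdac2, a histone deacetylase, averaged 11.79 ± 0.19 against 11.16 ± 0.04 (difference 0.63, SE 0.13, adjusted p = 0.0479). Over 15 alternatives Kdm1a stayed between 0.60 and 0.76 and passed in 4, and Hdac2 stayed between 0.45 and 0.73 and passed in 3. With the replicate number as a block 0 of 31 passed, at an adjusted p of 0.0823 for Kdm1a and 0.079 for Hdac2. The median of the list was −0.03 (all genes 0.00711), and in recruitment 0 of 31 passed with this shRNA, with a median of −0.03.

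With the Rpl11 shRNA 3 of the 31 regulators rose in level and 6 fell, where 8.70% and 11.4% of all genes did. Kdm1a rose by 1.21 (SE 0.14, adjusted p = 0.00148), at 11.01 ± 0.03 against 9.80 ± 0.15, and passed in 16 of 16 alternatives. Tcf3, which encodes the E proteins that pair with TAL1, was lower at 10.24 ± 0.39 against 11.52 ± 0.05 (difference −1.28, SE 0.18, adjusted p = 0.00228). E2f4, a cell cycle factor needed for red cell expansion in the mouse, was lower at 8.28 ± 0.76 against 10.47 ± 0.16 (difference −2.19, SE 0.32, adjusted p = 0.00234). Both passed in 16 of 16 alternatives, though without the 2nd and 3rd Rpl11 gradients the difference was −0.92 for Tcf3 and −1.38 for E2f4. Ssbp4, of the family of single-stranded DNA-binding proteins whose members bind LDB1, differed by −2.08 (SE 0.34, adjusted p = 0.00392), or −1.27 (adjusted p = 0.0699) without those gradients. With that lone gradient 1 of the 31 passed higher and 2 lower. The median of the list over all gradients was −0.16 (all genes −0.0795), and it lay between −0.37 and 0.24 over 16 alternatives. In these, 1 to 11 of the 31 were higher and 2 to 11 lower. The Gapdh ratios of 1.67 and 3.6 belong to those 2 gradients, and their part in these counts was not tested. In recruitment, 1 of 31 rose and 0 fell where 2.11% and 3.52% of all genes did. That gene was Mta2 of the NuRD complex, at 0.53 ± 0.33 against −0.34 ± 0.18 (difference 0.87, SE 0.22, adjusted p = 0.0448, or 0.50 with an adjusted p of 0.343 without the 2nd and 3rd Rpl11 gradients).

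Genes that GATA1 is known to activate in erythroid cells were read from a list of 29, of which 20 were tested. With the Rps19 shRNA 0 of the 20 passed in level and 0 in recruitment. Their median level difference was −0.40, where all genes had 0.00711, and over 15 alternatives it lay between −0.45 and −0.35. With the Rpl11 shRNA 4 of the 20 rose in level and 2 fell, where 8.70% and 11.4% of all genes did, with a median of −0.24 (all genes −0.0795). Over 16 alternatives 0 to 6 were higher and 0 to 3 lower, with a median from −0.35 to 0.16. The haem synthesis enzyme Urod rose by 0.59 (SE 0.14, adjusted p = 0.0165), the blood group protein Rhd by 0.66 (SE 0.17, adjusted p = 0.0209) and the membrane protein Gypc by 0.78 (SE 0.22, adjusted p = 0.028). The erythropoietin receptor gene Epor was lower at 10.5 ± 0.5 against 11.5 ± 0.1 (difference −0.99, SE 0.23, adjusted p = 0.0142). Without the 2nd and 3rd Rpl11 gradients Rhd was the 1 of these 4 genes past the threshold (0.96, adjusted p = 0.0258), on the assumed spread of 1 gradient. In recruitment Rhd rose by 0.78 (SE 0.14, adjusted p = 0.0146) and Gypc fell by 0.71 (SE 0.16, adjusted p = 0.0344), and the median of the 20 was 0.00. Without those gradients neither passed, at 0.70 (adjusted p = 0.0831) and −0.57 (adjusted p = 0.195).

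Genes that GATA1 is known to repress were 5, all tested, and they belong to the progenitor state. With the Rps19 shRNA 0 of 5 passed in level, with a median of 0.22, and with the Rpl11 shRNA 2 of 5 fell, where 11.4% of all genes did, with a median of −0.66. The myeloid factor gene Spi1 averaged 9.21 ± 0.41 with the Rpl11 shRNA and 10.24 ± 0.19 with the control construct (difference −1.03, SE 0.22, adjusted p = 0.00972), and Myc, which drives growth, 11.2 ± 0.53 and 12.14 ± 0.21 (difference −0.93, SE 0.23, adjusted p = 0.0173). Spi1 passed in 14 of 16 alternatives and Myc in 9, and the median of the 5 lay between −0.99 and −0.26. In the 1st Rpl11 gradient alone the differences from the control construct were −0.69 for Spi1 and −0.32 for Myc. Between the shRNAs 4 of 5 were higher with the Rps19 than with the Rpl11 shRNA, where 11.8% of all genes were. They were Gata2, which GATA1 replaces at many sites as erythroblasts mature, at 10.63 ± 0.25 and 9.27 ± 0.46 (difference 1.35, SE 0.26, adjusted p = 0.00558), with Myc (1.15), Spi1 (0.96) and the stem cell factor receptor gene Kit (1.26). Without the 2nd and 3rd Rpl11 gradients Gata2 was the 1 past the threshold (1.86, adjusted p = 0.0118), again on the assumed spread of 1 gradient. Of the 20 genes that GATA1 activates, 1 was higher and 6 were lower with the Rps19 than with the Rpl11 shRNA (11.8% and 8.57% of all genes). The lower ones include Epb42, a protein of the red cell membrane skeleton, at 7.95 ± 0.47 and 10.49 ± 0.29 (difference −2.54, SE 0.49, adjusted p = 0.00622), Hemgn (−1.35, SE 0.24) and Urod (−1.01, SE 0.14). Without those gradients 0 were higher and 2 lower.

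Over the 12 gradients, the genes whose recruitment ran most like that of Gata1 were the mitochondrial enzyme gene Idh2 (Pearson r = 0.95), Aimp2 of the tRNA synthetase complex (0.944), the calpain subunit gene Capns1 (0.941), the ribosome biogenesis gene Rrp1 (0.939) and Elavl1, which encodes an RNA-binding protein (0.935). Without the 3 Rpl11 gradients, over 9, these values were 0.901, 0.783, 0.951, 0.83 and 0.851. The gradients share their arrays, scaling and group, and the 5 genes were picked as the highest of 11046, so the values describe likeness and carry no test. Among the other members r with Gata1 was highest for Klf1 (0.265) and lowest for Bcl11a (−0.691) and Trim10 (−0.617). The other 6 members lay between −0.466 and 0.211.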

How the data were processed

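RNA from the polysomal and subpolysomal pool of 12 sucrose gradients was measured on 24 Affymetrix arrays. The deposited intensity values are MAS5 signals per probe set, per the submitters' processing notes, with no version given in the sources used here, and their mean after trimming 2% at each end was 499.77 to 499.81 on the 6 arrays of the Rpl11 shRNA and 500 on the other 18. The deposited fraction per gradient, polysomal signal over the sum of both pools, per the file headers, differed from the fraction computed from the signals by at most 7.11e-10.

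Of 45101 probe sets, 34958 have 1 gene symbol in the platform annotation, 932 several and 9211 none, and only those with 1 symbol were named. Recruitment and level were computed from log2(signal + 7.8516), an offset of 0.1 of the median signal of 78.516, so fold changes of dim genes are understated. The brightest probe set stood for a gene, and the 11046 genes above the 50th percentile of mean log2 signal (6.17) were tested with limma 3.58.1 in R 4.3.3. The shRNA group was the only factor over 12 gradients, and the pools of a gradient were paired. P-values were adjusted by Benjamini-Hochberg over all 11046 genes, with a threshold of 0.05. The code was tested on simulated data. The 10 members are always named, as are both shRNA targets, at most 4 genes per list with the smallest p past the threshold, and the 5 genes most like Gata1 in recruitment. The members, lists and tests were chosen with earlier results of these data known. Correlations between arrays were 0.875 to 0.965 and no 2 arrays were identical. The number of arrays limits the precision, and no label gives a scan date or other batch. Same-numbered gradients deviated together, with every pair's correlation over 0.1, only in level between the Rps19 shRNA and the control construct (0.527, 0.292 and 0.211). This hint from the data is the one source of a pairing across groups, and the fits have no block for it unless stated. The alternatives were other offsets, no filter, other scalings, the mean over probe sets, the deposited fractions, fits of only the groups compared, a replicate block and leaving out gradients.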

Additional observations from a re-analysis of the deposited data

Results flagged for a closer look

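The levels of 3 of the 10 genes passed a direct test between the shRNAs, Rps19 against Rpl11. Ldb1 differed by 2.99 (SE 0.71, adjusted p = 0.0152), Zfpm1 by 0.87 (SE 0.24, adjusted p = 0.0259) and Foxo3 by −1.01 (SE 0.18, adjusted p = 0.00384), each in 3 of 3 gradients. For Foxo3 this holds on the brightest probe set, and on its others the groups overlapped. Over 16 alternatives Ldb1 lay between 0.80 and 4.08 and passed in 13, Zfpm1 lay between 0.52 and 1.90 and passed in 8, and Foxo3 lay between −1.36 and −0.29 and passed in 14. The Rpl11 gradients had mean log2 Gapdh 3' to 5' ratios of 0.27, 1.67 and 3.6, those of the Rps19 shRNA −0.41, −0.18 and 0.04, and their part in the differences was not tested.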

How the results depend on the processing

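Of 1400 values of the 10 genes under alternatives, 1336 kept their direction and side of the threshold or passed in neither setting, 34 no longer passed, 25 newly passed and 5 changed sign with a pass in 1 of the settings. Of 1266 that passed in neither setting, 77 had another sign. For recruitment under the Rpl11 shRNA (control construct as comparison), the count of 1 member past the threshold became 0 with no filter, with arrays centred on their medians, with only the groups compared, with the replicate block and without the 2nd and 3rd Rpl11 gradients, and was 0 to 0 when 1 gradient was left out. For level in the same comparison, the count of 1 became 3 with an offset of 0.5 of the median, with either quantile normalization and with the mean over probe sets, 4 with centring, 2 with the replicate block, 0 with no filter, with only the groups compared and without the 2nd and 3rd Rpl11 gradients, and 0 to 4 with 1 gradient left out. In level between the shRNAs the count of 3 became 1 with only the groups compared, 0 without those gradients and 1 to 4 with 1 left out. Between the pools the count of 2 became 8 with centring, 1 with no replicate block (Gata1 adjusted p = 0.085) and 1 to 2 with 1 gradient left out. The other 5 comparisons kept 0 members in every alternative run. Between the pools, centring turned Gata1 to 0.37, Klf1 to 0.53, Nfe2 to 0.61 and Zfpm1 to 0.54, as it raises every polysomal value relative to its partner, and the mean over probe sets turned Bcl11a to −0.47. The cause of the other moves was not tested.

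Over all genes, the counts past the threshold, with their lowest and highest over the alternatives, were 96 (0 to 131) for recruitment with the Rps19 shRNA, 622 (0 to 659) with the Rpl11 shRNA, 61 (0 to 128) between the shRNAs and 0 (0 to 3) for the control construct. For level they were 89 (0 to 106), 2224 (609 to 3667), 2255 (926 to 3494) and 0 (0 to 1) in the same order, and 4515 (2856 to 7161) between the pools. The share of higher calls moved with scaling. For level with the Rpl11 shRNA it was 43.2%, 56.1% with quantile normalization and 89.6% with centring, and between the shRNAs 58%, 46.1% and 14.9%. For level with the Rps19 shRNA it was 41.6% and 57.9% with centring, and between the pools 47.6%, 60.7% and 95.3%. For recruitment with the Rpl11 shRNA it was 37.5% and 20% with centring. For recruitment between the shRNAs it was 78.7% of 61 genes, 60% of 15 with quantile normalization and 46.2% of 13 with that within pools. With so few genes these shares between the shRNAs are coarse. Correlations of same-numbered gradients passed 0.1 in 0 of 18 pairs for recruitment (−0.124 to 0.0852) and 7 of 18 for level (−0.331 to 0.527), and the replicate block left Gata1 recruitment with the Rpl11 shRNA at 0.62 (adjusted p = 0.0773). For level with the Rps19 shRNA, where every pair passed 0.1, the block moved the 89 genes to 17 and changed no call of the 10 members.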
